A study of Mus musculus with 6 samples.

Results

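The SOX family of transcription factors was followed in R1 mouse embryonic stem cells, an established pluripotent line, between the first and second day of treatment with FGF2. All libraries share 1 history per the labels: cells were grown in 2iLIF medium, which holds them in the naive state of pluripotency, and then moved to N2B27 medium with FGF2 at 100 ng/ml. The groups are FGF2 for 24 h (3 libraries of messenger RNA) and FGF2 for 48 h (3 libraries). No library of cells in 2iLIF, or in N2B27 without FGF2, was analysed here, so FGF2, the change of medium and time in culture cannot be told apart. The labels do not say whether replicates were separate cultures, so p-values measure the spread between these libraries, which may be technical.

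The members were chosen by gene symbol, with earlier results of these data known. They are 10 SOX genes of the 51912 genes in the deposited table: group B1 (Sox1, Sox2 and Sox3), group C (Sox4, Sox11 and Sox12), and Sox9, Sox13, Sox15 and Sox21 from other groups. SOX proteins bind DNA through an HMG box, a domain that sits in the minor groove and bends the helix. Most act with a partner factor, and the pairing of SOX2 with OCT4 at joined sites is the best known in embryonic stem cells. Of group B1, SOX2 keeps embryonic stem cells pluripotent, and B1 proteins later hold neural progenitors in an undifferentiated state. Group C proteins are best known from later neural and mesenchymal progenitors, and members of one group can often stand in for each other.

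Between 24 h and 48 h, Sox2 mRNA, by far the most abundant of the family, was lower at the later time, while the other B1 genes and all group C genes were higher. Sox3 rose most, by 2.14 on the log2 scale, and Sox15, the single member of a group related to B1, fell most, at -1.82. The family therefore changed in make-up: per length of transcript, Sox2 held 97.2% ± 0.141 of the B1 total at 24 h and 89.1% ± 0.216 at 48 h (SD, n = 3 at each time). Group C went from 8.66% ± 0.347 to 20.7% ± 0.478 of the total over the 10 members, and from 18.2% ± 0.71 to 37.7% ± 0.711 without division by length. Levels below are CPM, counts scaled to library size with TMM factors, and levels of different genes are compared as CPM per kb of transcript. Fold changes are 48 h over 24 h.

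**Figure D1:**
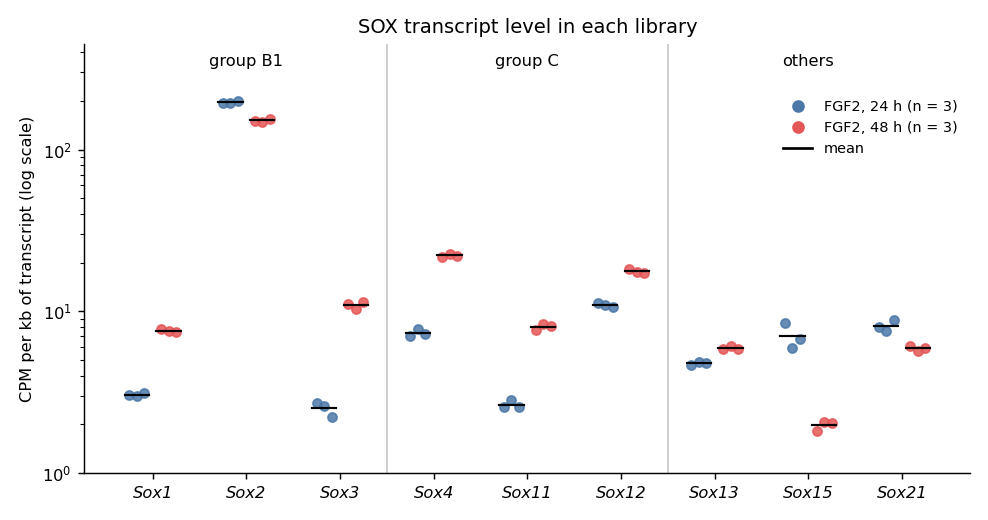
Level of 9 SOX members in each library, in CPM per kb of transcript on a log axis, with 1 point per library and a bar at the mean of each time (n = 3). Sox2 lies between 149.1 and 199.9 CPM per kb and above every other member at both times, and the 24 h and 48 h points of each gene are apart. Sox9 is left out because its counts include 0.

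Libraries held between 19574969 and 23133148 estimated counts, and Spearman correlations of log2 CPM across genes were at least 0.9965 within a time and at most 0.9754 between times. The labelled cell type was checked with 6 pluripotency markers, all of them tested, whose summed level was 4306 to 4323 CPM at 24 h and 2845 to 2921 CPM at 48 h. Of the 6, 5 were called lower at 48 h and 1, Utf1, was called higher, where 62.8% of all tested genes were called. The counts of Dppa5a and Tdgf1 were fractional. Pou5f1, which encodes OCT4, was at 1111 ± 1.99 CPM and then at 1058 ± 15.2 CPM (SD, n = 3). Markers of other cell types were far lower. The 6 primitive endoderm markers summed to 9.31 to 11.1 CPM at 24 h and 5.58 to 6.32 CPM at 48 h, and the 6 fibroblast markers to 2.54 to 3.35 and 1.47 to 2.44 CPM, with Postn at 0 in every library. The 6 mesoderm and streak markers summed to 15.9 to 18.6 and 12.9 to 14.9 CPM, nearly all from Eomes, with T at no more than 2 counts in a library. The 6 neural progenitor markers summed to 37.5 to 40.04 CPM at 24 h and 56.4 to 63.1 CPM at 48 h. Of them, Pax6 rose from 11.6 to 33.9 CPM, and Zic1 from 0.425 to 1.55 CPM with at most 39 counts in a library. Nes, at 26.94 and then 23.55 CPM, was called lower (edgeR adjusted p = 0.0157). The Nes call was lost with DESeq2 (0.0554) and without replicate 2 (0.0949) or 3 (0.0652) of 48 h. Fabp7, Hes5 and Neurog2 had at most 9, 1 and 3 counts in a library. The part of these cell types in the SOX results was not tested. In these bulk libraries, more cells that express a gene and more RNA per cell cannot be told apart.

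Of the 10 members, 9 passed the filter on low counts, and edgeR's quasi-likelihood test called all 9 changed at an adjusted p below 0.05. Over all 14889 genes tested, 62.8% changed, so being called is common here. Of the 9, 6 were higher at 48 h (30.9% of all tested genes were) and 3 were lower (31.9%). The values of the times did not overlap for any of the 9, against 66.9% of all tested genes. Sox1, Sox3, Sox4 and Sox11 were called and at least 2-fold higher, as were 4.59% of all tested genes. The median log2 fold change of the 9 was 0.69, beside -0.01 for all tested genes. The tenth member, Sox9, did not pass the filter. Of the 10 other mouse SOX genes, 2 were tested and not called. Since the members were chosen with earlier results known, their shares do not stand for all SOX genes.

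**Figure D2:**
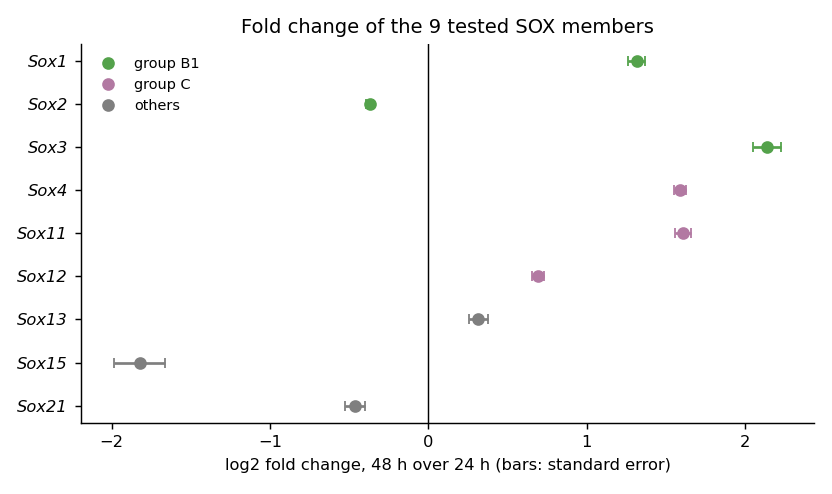
Log2 fold change of the 9 tested SOX members, 48 h over 24 h, from edgeR, with bars for the standard error. Sox1 and Sox3 lie to the right of 0 and Sox2 to the left, all 3 group C genes lie to the right, and Sox15 is lowest at -1.82.

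The B1 proteins share nearly the same DNA-binding domain, and the coding stretches of their HMG boxes are shown because the messages of these close relatives moved in opposite directions and had to be told apart in the counting. Each line gives 79 codons (237 bases, 5′ to 3′, coding strand, GENCODE M21 transcripts on GRCm38), starting 4 codons before a residue motif found in all 10 members. Capitals mark bases that differ from Sox2.
Sox2: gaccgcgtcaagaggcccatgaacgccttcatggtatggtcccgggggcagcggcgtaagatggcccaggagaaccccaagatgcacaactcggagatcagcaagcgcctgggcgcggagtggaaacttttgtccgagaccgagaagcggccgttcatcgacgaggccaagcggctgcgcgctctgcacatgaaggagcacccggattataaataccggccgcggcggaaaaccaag
Sox1: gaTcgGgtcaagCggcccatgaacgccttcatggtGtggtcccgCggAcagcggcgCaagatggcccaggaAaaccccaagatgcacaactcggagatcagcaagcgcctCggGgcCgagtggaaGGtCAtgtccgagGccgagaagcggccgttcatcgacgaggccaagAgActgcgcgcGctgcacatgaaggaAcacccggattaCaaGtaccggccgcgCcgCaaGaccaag
Sox3: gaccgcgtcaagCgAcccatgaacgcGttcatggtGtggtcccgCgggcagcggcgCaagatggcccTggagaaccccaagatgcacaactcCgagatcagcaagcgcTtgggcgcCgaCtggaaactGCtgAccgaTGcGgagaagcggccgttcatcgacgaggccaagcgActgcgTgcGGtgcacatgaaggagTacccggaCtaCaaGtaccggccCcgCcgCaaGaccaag
Sox1 differs from Sox2 at 25 of the 237 bases and, once translated, at 3 of the 79 residues. Sox3 differs from Sox2 at 29 bases and 7 residues. At the residue level, identity between B1 boxes was 89.9% to 96.2%.

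Sox2 encodes the partner of OCT4 and is required to keep embryonic stem cells pluripotent. It is a single-exon gene (ENSMUSG00000074637, GRCm38 chr3:34650405-34652461, plus strand) that lies within the span of the long noncoding gene Sox2ot without sharing an exon. Its level was 397.8, 399.4 and 411.1 CPM at 24 h and 310.4, 306.6 and 317.7 CPM at 48 h. All 3 libraries of 48 h lay below all 3 of 24 h, and the replicates were tight, with an SD of 7.27 and 5.66 CPM. The log2 fold change was -0.37 ± 0.02 (standard error; edgeR adjusted p = 1.01e-10). The size of this change was at the 62nd percentile of all tested genes.

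Sox1, an early marker of neuroectoderm, is also a single-exon gene (ENSMUSG00000096014, chr8:12395295-12400126, plus strand). It was at 14.6, 14.6 and 15.05 CPM at 24 h and at 37.6, 36.2 and 36.1 CPM at 48 h. The later libraries were all higher, and neither time spread by more than 0.793 CPM (SD, n = 3). The log2 fold change was 1.31 ± 0.05 (standard error; adjusted p = 1.38e-12).

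Sox3, the X-linked member of the group (ENSMUSG00000045179, chrX:60891366-60893430, minus strand, 1 exon), is expressed in the epiblast and then in the neural plate. Its level was 5.56, 5.37 and 4.58 CPM at 24 h and 23.01, 21.4 and 23.5 CPM at 48 h. These values rest on 108 to 111 counts in each 24 h library and 469 to 522 in each 48 h library. Sox3 had the largest increase of the family, at 2.14 ± 0.09 on the log2 scale (standard error; adjusted p = 2.4e-12), and its size was at the 97.6th percentile of all tested genes.

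Per kb, the messages of Sox1 and Sox3 together went from 5.55 ± 0.196 to 18.6 ± 0.587 CPM per kb (SD, n = 3), while Sox2 changed from 195.8 ± 3.54 to 151.5 ± 2.75. Sox1 and Sox3 together gained 13.01 CPM per kb and Sox2 fell by 44.3, and the B1 total was lower at 48 h, at 170.0 ± 3.21 against 201.4 ± 3.34 CPM per kb. The B1 totals of the times did not overlap. A two-sided exact permutation test of this total gave p = 0.1, and a test of 3 against 3 libraries cannot go lower. It was also 0.1 for each of the other 11 totals and shares tested, and 0.1 after adjustment over the 12.

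Within B1, Sox3 went from 1.25% ± 0.145 to 6.45% ± 0.203 of the total per kb and Sox1 from 1.51% ± 0.00517 to 4.46% ± 0.135 (SD, n = 3). Without division by length the change was larger for Sox1, from 3.48% ± 0.0117 to 9.88% ± 0.282, than for Sox3, from 1.22% ± 0.142 to 6.11% ± 0.195. The ratio of Sox2 to Sox3 messages per kb was 71.9, 74.7 and 90.2 in the 24 h libraries and 13.5, 14.4 and 13.6 in the 48 h libraries. The ratio of Sox2 to Sox1 was 64.1, 64.5 and 64.2 at 24 h and 19.4, 19.9 and 20.7 at 48 h. Both ratios were lower in every later library, and the spread within a time was far smaller than the step between times. Sox1 was ahead of Sox3 in every 24 h library, by a ratio of 1.12 to 1.41 per kb, and behind it in every 48 h library, at 0.656 to 0.723. This order at 48 h depends on length: in CPM without division by length, Sox1 was at 36.6 and Sox3 at 22.7. Sox2 remained above the sum of the other B1 genes in every library at both times.

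**Figure D3:**
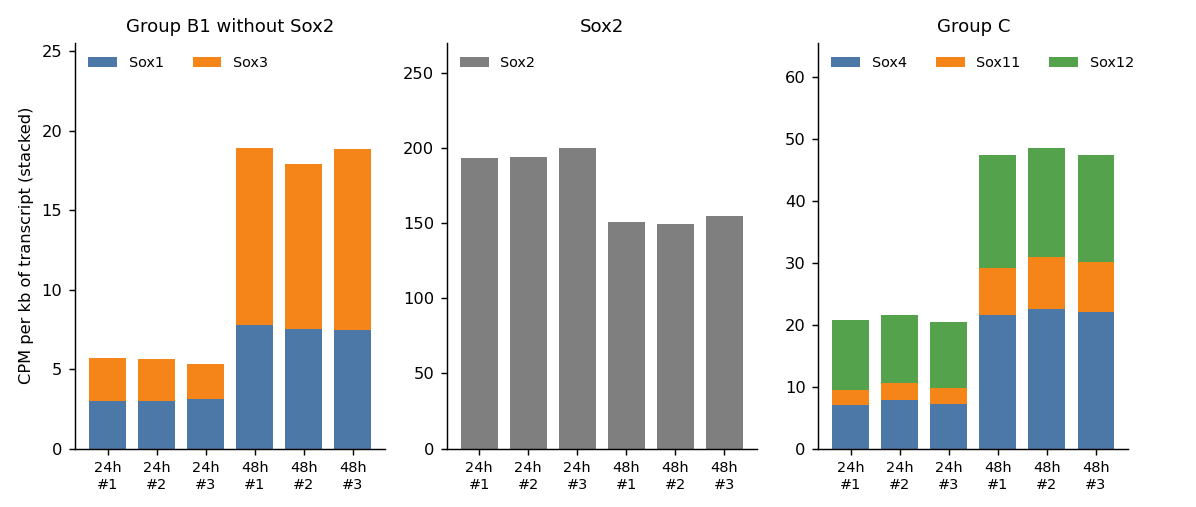
Transcript level in CPM per kb, stacked by gene, in each of the 6 libraries (24h and 48h are the times, #1 to #3 the replicates), for group B1 without Sox2, for Sox2 alone and for group C. Each panel has its own scale from 0. The B1 genes other than Sox2 go from at most 5.71 to at least 17.9, Sox2 falls, and group C goes from at most 21.6 to at least 47.5.

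The boxes of Sox4 and Sox11 are shown in the same way, with capitals for bases that differ from Sox4, since these genes moved by nearly the same factor.
Sox4: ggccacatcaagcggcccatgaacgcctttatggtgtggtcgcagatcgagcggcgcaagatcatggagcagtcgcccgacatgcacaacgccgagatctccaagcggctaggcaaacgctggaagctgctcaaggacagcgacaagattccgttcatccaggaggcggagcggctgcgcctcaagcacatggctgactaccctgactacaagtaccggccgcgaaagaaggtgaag
Sox11: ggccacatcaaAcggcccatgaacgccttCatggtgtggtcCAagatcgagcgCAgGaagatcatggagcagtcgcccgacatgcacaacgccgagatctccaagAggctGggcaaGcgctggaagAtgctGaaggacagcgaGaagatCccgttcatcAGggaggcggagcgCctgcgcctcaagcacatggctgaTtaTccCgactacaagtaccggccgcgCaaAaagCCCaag
Sox11 differs from Sox4 at 25 bases and 5 residues. Base identity over this stretch was 89.5% between Sox4 and Sox11, 87.8% to 89.5% within B1 and 68.8% between Sox2 and Sox4. The longest run of bases shared by the whole transcripts of any pair of members was 48, between Sox4 and Sox11. Estimated counts were whole numbers in every library for all 10 members, so no fractional assignment is seen for them.

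Sox4 and Sox11 encode strong activators that are best known from neuronal differentiation and from progenitors of many organs, and both have 1 exon. Sox4 (ENSMUSG00000076431, chr13:28948919-28953713, minus strand) was at 33.6, 37.5 and 34.8 CPM at 24 h and at 103.8, 108.7 and 106.04 CPM at 48 h. Its lowest 48 h library was well above its highest 24 h library. The log2 fold change was 1.59 ± 0.04 (standard error; adjusted p = 3.23e-15). Its exons overlap those of Gm26735 on the other strand, which had 3 to 33 counts in a library and also rose (log2 fold change 2.04, adjusted p = 1.43e-04).

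Sox11 (ENSMUSG00000063632, chr12:27334264-27342574, minus strand) was at 21.2, 23.6 and 21.1 CPM and then at 63.5, 69.6 and 67.5 CPM. It rose by nearly the same factor as Sox4, at 1.61 ± 0.05 in log2 units (standard error; adjusted p = 7.04e-14). The ratio of Sox4 to Sox11 per kb was 2.79 ± 0.0615 at 24 h and 2.75 ± 0.0702 at 48 h (SD, n = 3), and the values of the times overlapped.

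Sox12 encodes the weakest activator of group C (ENSMUSG00000051817, chr2:152393611-152398063, minus strand, 1 exon). It was at 50.4, 48.6 and 47.3 CPM at 24 h and at 81.3, 78.3 and 77.0 CPM at 48 h, again with no overlap. The log2 fold change of 0.69 ± 0.04 (adjusted p = 5.97e-11) was the smallest of the group. Sox12 exceeded Sox4 in every 24 h library, by a ratio per kb of 1.4 to 1.62, and was below it in every 48 h library, at 0.776 to 0.844.

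The group C total went from 20.96 ± 0.576 to 47.9 ± 0.617 CPM per kb (SD, n = 3), 2.29-fold. Sox12 went from 52.3% ± 1.81 to 36.98% ± 1.24 of this total, Sox4 went from 35.1% ± 1.38 to 46.2% ± 0.606, and Sox11 from 12.6% ± 0.496 to 16.8% ± 0.639. No share overlapped between the times. In absolute terms Sox4 added most, 14.8 CPM per kb, with 6.75 from Sox12 and 5.4 from Sox11.

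The other members split. Sox13 encodes a group D protein, a class without an activation domain of its own (ENSMUSG00000070643, chr1:133382303-133424377, minus strand, 14 exons in the longest coding transcript). It was at 17.1, 17.9 and 17.7 CPM at 24 h and at 21.5, 22.4 and 21.7 CPM at 48 h. The increase was the smallest in size of the 9, at 0.31 ± 0.06 in log2 units (standard error; adjusted p = 2.36e-04).

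Sox21 encodes a group B2 protein, a repressor that binds the same sites as B1 proteins (ENSMUSG00000061517, chr14:118233232-118237030, minus strand, 1 exon). Its levels were 30.5, 28.5 and 33.5 CPM at 24 h and 23.1, 21.7 and 22.5 CPM at 48 h, lower in every later library. The log2 fold change was -0.46 ± 0.06 (adjusted p = 5.23e-06), and both this gene and Sox2 fell. The ratio of Sox2 to Sox21 per kb was 24.2 ± 1.6 and 25.7 ± 0.749 (SD, n = 3), and its values overlapped between the times. Its HMG box coding stretch shared 87.8% of bases with that of Sox2, within the range seen between B1 genes. Its exons overlap those of Gm4675 on the other strand, which had 9 to 24 counts in a library and also fell (log2 fold change -0.83, adjusted p = 0.0382).

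Sox15 encodes the single protein of group G, which can bind with OCT4 as SOX2 does (ENSMUSG00000041287, chr11:69655314-69656727, plus strand, 2 exons). It was at 7.26, 5.13 and 5.76 CPM at 24 h and at 1.56, 1.78 and 1.76 CPM at 48 h, a mean 3.55-fold lower. The log2 fold change was -1.82 ± 0.16 (adjusted p = 4.76e-08). The counts were 105 to 145 in a 24 h library and 34 to 39 in a 48 h library, and the 24 h values had the widest spread of the 9, 18.1% of their mean. Exons of Sox15 overlap those of Mpdu1 on the other strand in GENCODE M21, and whether counting was strand-aware is not given in the sources used here. Mpdu1 had 1251 to 1709 counts in a library and moved in the opposite direction (log2 fold change 0.28, adjusted p = 1.21e-06). The ratio of Sox2 to Sox15 per kb went from 28.5 ± 4.98 to 76.9 ± 5.62. Per kb, Sox15 stood at 7.03 ± 1.27 at 24 h, between Sox4 and Sox13, and at 1.98 ± 0.139 at 48 h, the lowest of the tested members. Its place at 24 h depends on its short transcript of 0.861 kb. In CPM without division by length, Sox15 (6.05) was then below Sox11 (22.0), Sox13 (17.6) and Sox1 (14.7).

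Sox9, a factor of cartilage, gonads and neural crest, had 0, 1 and 0 counts at 24 h and 3, 1 and 5 counts at 48 h. Sox9 did not pass the filter, and it was not called when every gene with a count was kept (log2 fold change 2.73, adjusted p = 0.1).

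Ordered by CPM per kb, Sox2 led at both times, 17.9-fold above Sox12 at 24 h and 6.84-fold above Sox4 at 48 h. At 24 h Sox12 (10.96), Sox21 (8.11), Sox4 (7.36), Sox15 (7.03), Sox13 (4.76), Sox1 (3.05), Sox11 (2.64) and Sox3 (2.5) followed. At 48 h the order was Sox4 (22.1), Sox12 (17.7), Sox3 (10.98), Sox11 (8.05), Sox1 (7.58), Sox13 (5.92), Sox21 (5.9) and Sox15 (1.98). Neighbours whose libraries overlapped were Sox21 and Sox4, Sox4 and Sox15, and Sox11 and Sox3 at 24 h, and Sox11 and Sox1, and Sox13 and Sox21, at 48 h. By mean CPM per kb, Sox3 was the least abundant tested member at 24 h and the fourth most abundant at 48 h. Its place at 48 h depends on length: in CPM without division by length, Sox3 (22.7) was below Sox11 (66.9) and Sox1 (36.6). The place of Sox15 at 24 h depends on length in the same way.

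Summed over the 10 members, the level per kb was 242.2 ± 3.29 at 24 h and 231.7 ± 2.74 at 48 h (SD, n = 3), without overlap. The direction of this sum depends on length: without division by length the total went from 583.2 ± 6.86 to 668.9 ± 4.56 CPM, with transcripts of 4.453 to 8.311 kb for Sox1 and the group C genes, which rose, and of 2.057 kb for Sox2. The share of B1 in the sum per kb went from 83.1% ± 0.468 to 73.4% ± 0.541, and without division by length from 72.5% ± 0.362 to 55.5% ± 0.71.

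Of the other 10 mouse SOX genes, 8 were too low to test, and none had more than 23 counts in a library. Sox5 and Sox30 were tested and not called, at 0.366 ± 0.161 and 0.41 ± 0.162 CPM (adjusted p = 0.752) and at 0.756 ± 0.134 and 0.866 ± 0.156 CPM (adjusted p = 0.579) at 24 h and 48 h (SD, n = 3). Sox17 and Sox7, of endoderm and endothelium, had at most 11 and 12 counts, Sox18 at most 15, and Sox6 and Sox8 at most 12. Sry had 0 in every library. The noncoding gene around Sox1, Sox1ot, was at 1.51 ± 0.252 and 2.09 ± 0.673 CPM (adjusted p = 0.106), and Sox2ot at 0.923 ± 0.068 and 1.17 ± 0.095 CPM (adjusted p = 0.256). Sox2ot was not called, its log2 fold change of 0.34 ± 0.26 (standard error) pointing away from that of Sox2, and its counts were not all whole numbers. Without replicate 2 of 48 h, Sox1ot was called (log2 fold change 0.63, adjusted p = 0.0492).

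RefSeq promoter windows (250 bases before to 50 after the start, GRCm38.p6) were found for 8 of the 10 members. GC content was 52% to 76.7%, beside a median of 52.7% over 32851 promoters. The ratio of observed to expected CpG was between 0.679 and 1.07 for 7 of the 8, and 0.239 for Sox15, beside a median of 0.384. RefSeq starts can differ from those of GENCODE: the windows of Sox2, Sox11 and Sox15 lie wholly before the gene starts given above. The 250 bases upstream of the RefSeq starts of Sox12 and Sox15 are shown as ends of the CpG range, with CpG sites in capitals. Sox1 shared the upper end of 1.07 with Sox12.
Sox12: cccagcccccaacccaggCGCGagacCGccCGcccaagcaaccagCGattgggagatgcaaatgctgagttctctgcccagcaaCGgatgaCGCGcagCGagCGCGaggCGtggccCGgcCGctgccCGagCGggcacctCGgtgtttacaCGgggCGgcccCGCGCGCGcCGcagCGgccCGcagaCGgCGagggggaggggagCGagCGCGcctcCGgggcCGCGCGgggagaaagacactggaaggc
Sox15: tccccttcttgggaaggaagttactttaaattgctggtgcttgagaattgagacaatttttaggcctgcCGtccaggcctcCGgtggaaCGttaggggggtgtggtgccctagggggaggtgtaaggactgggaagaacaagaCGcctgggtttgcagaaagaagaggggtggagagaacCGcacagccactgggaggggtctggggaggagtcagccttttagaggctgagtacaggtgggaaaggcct
The Sox12 stretch (chr2:152398047-152398296, minus strand) has 35 CpG sites and the Sox15 stretch (chr11:69654787-69655036, plus strand) has 5. The POU octamer ATTTGCAT was found on either strand in the windows of Sox1 and Sox12, and in 1.74% of all promoters. The SOX core ACAAAG was found in those of Sox2 and Sox15 (18.7% of all), while ACAATG (12.6% of all) and the ETS motif CCGGAAGT (3.89% of all) were in none of the 8. A match is a string of letters and does not show binding.

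The partners with which SOX proteins bind also changed. Of 13 listed partner factors, 12 were tested, 7 rose and 5 fell. Their median log2 fold change was 0.2, beside -0.01 over all genes tested, of which 62.8% were called. Pou3f1, the POU factor of the formative epiblast, rose from 5.72 ± 0.814 to 79.6 ± 2.25 CPM (SD, n = 3), a step of 3.79 in log2 units with an edgeR adjusted p of 3.26e-17. Otx2, Pax6, Zic2 and the remodeller Chd7 rose by 1.74, 1.56, 1.22 and 0.99 on the log2 scale, and Sall4 and Pou2f1 by 0.22 and 0.17. Nanog and Esrrb, which bind beside SOX2 in naive cells, fell, with log2 fold changes of -1.99 and -1.47. Pou5f1 fell by 0.07, a change much smaller than that of Sox2.

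Pou3f2 and Pou3f3, neural POU factors, were low, at 1.85 CPM or less, and had log2 fold changes of -0.87 (adjusted p = 0.0367) and -0.91 (adjusted p = 0.00748). Pou3f2 was not called with DESeq2 (adjusted p = 0.127) or without replicate 2 (0.094) or 3 (0.115) of 24 h or replicate 1 (0.154) or 2 (0.0822) of 48 h. Pou3f3 was not called without replicate 3 of 24 h (-0.7, adjusted p = 0.0597). Pou3f4 was not tested and had at most 3 counts in a library.

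**Figure D4:**
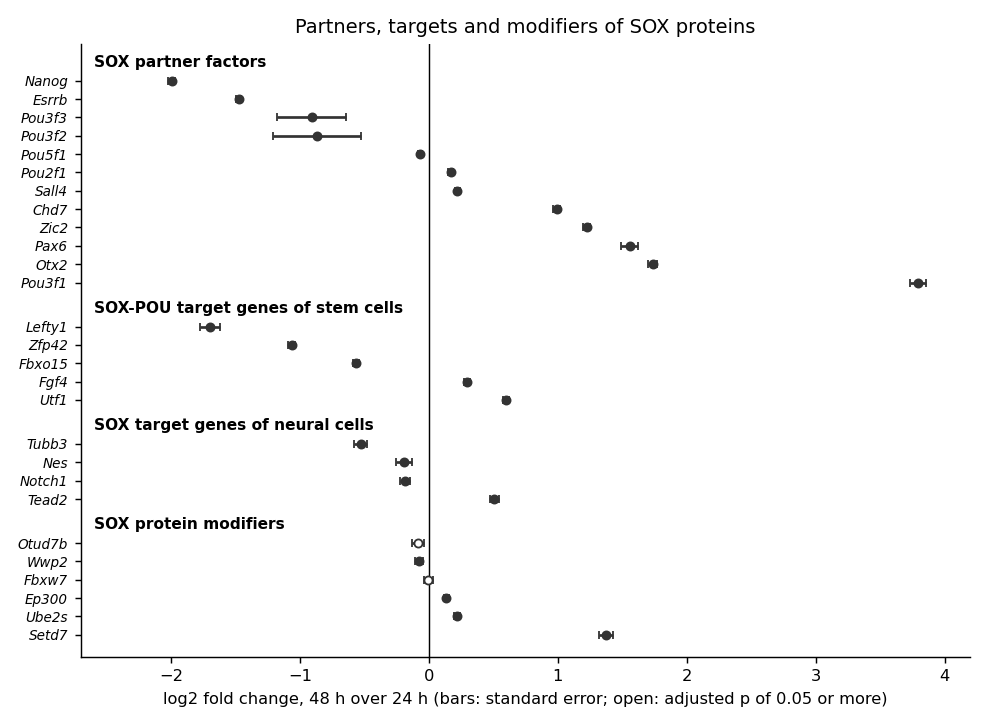
Log2 fold change, 48 h over 24 h, of the tested genes of 4 lists: partner factors, joined SOX-POU targets of stem cells, targets in neural cells and modifiers of SOX protein. Bars are standard errors and open points were not called; values run from -1.99 for Nanog to 3.79 for Pou3f1.

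All 5 listed stem cell genes with enhancers or promoters bound by SOX2 with OCT4 were called, 2 higher and 3 lower, where 62.8% of all tested genes were called, 30.9% higher and 31.9% lower. Their median log2 fold change was -0.57, beside -0.01 over all tested genes. Fgf4, which encodes the stem cells' own FGF, rose from 291.9 ± 8.3 to 358.9 ± 2.6 CPM (SD, n = 3), and Utf1, a chromatin factor, from 201.6 ± 5.98 to 304.8 ± 6.52 CPM. Fbxo15 fell from 249.3 ± 4.08 to 168.4 ± 1.25 CPM, Zfp42 from 1034 ± 9.1 to 494.6 ± 23.7 CPM and Lefty1, a Nodal inhibitor, from 31.01 ± 2.69 to 9.6 ± 0.58 CPM. Lefty1 has a close copy, Lefty2, and its counts were fractional, so its value is uncertain. The list thus moved in both directions while Sox2 fell.

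Of 7 listed neural targets of B1 or C proteins, 4 were tested, and Tead2, an effector of YAP and a known group C target, rose from 99.95 ± 5.66 to 142 ± 2.98 CPM (SD, n = 3), by 0.51 in log2 units (edgeR adjusted p = 1.91e-09). Tubb3, a neuronal tubulin and group C target, fell, at -0.53 in log2 units (adjusted p = 1.33e-07), and its counts were fractional. Notch1 and Nes, B1 targets, had log2 fold changes of -0.19 (adjusted p = 4.87e-04) and -0.19 (adjusted p = 0.0157). Nes was not called without replicate 2 (-0.14, adjusted p = 0.0949) or replicate 3 (-0.16, adjusted p = 0.0652) of 48 h, nor with DESeq2 (-0.19, adjusted p = 0.0554). Hes5, Fabp7 and Dcx were not tested and had at most 1, 9 and 2 counts in a library. All 4 tested genes were called, 1 higher and 3 lower, where 62.8% of all tested genes were called, 30.9% higher and 31.9% lower. The median log2 fold change of the 4 was -0.19, beside -0.01 over all tested genes.

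Among 6 enzymes that modify or turn over SOX2 or SOX9 protein, 3 rose and 1 fell, a share called close to the 62.8% of all tested genes. Their median log2 fold change was 0.07, beside -0.01 over all tested genes. Setd7, a methyltransferase that acts on SOX2 protein, rose from 16.4 ± 0.569 to 42.5 ± 2.65 CPM (SD, n = 3), by 1.37 in log2 units (edgeR adjusted p = 2.42e-12). Ube2s and Ep300 rose by 0.22 and 0.13, and Wwp2, a ubiquitin ligase for SOX2, was called lower at -0.08 (adjusted p = 0.0302). The Wwp2 call was lost with DESeq2 (adjusted p = 0.11) and without replicate 2 (0.0834) or 3 (0.121) of 24 h or replicate 2 (0.128) or 3 (0.108) of 48 h. Otud7b (-0.08, adjusted p = 0.118) and Fbxw7 (-0.0032, adjusted p = 0.947) were not called. Scaling by library size alone brought the adjusted p of Otud7b to 0.00969 (-0.14), and leaving out replicate 3 of 48 h brought it to 0.0205 (-0.13).

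To place 3 members among all genes, the tested genes nearest in log2 CPM, centred on each gene's mean, were found over the 6 libraries. With 2 times, likeness mostly reflects the size of the change. Nearest to Sox2 among 10427 genes were Coq8a, Map2k1 and Nudt4, with log2 fold changes of -0.38, -0.39 and -0.35 and root mean square differences of 0.0111, 0.0138 and 0.0138. Nearest to Sox3 were Bcl11a (2.19), Dnmt3a (2.02) and Tnnt1 (1.99), at differences of 0.0722 to 0.0809. Nearest to Sox15 were Dsp (-1.68), Sh3pxd2a (-1.88) and Eogt (-1.76), at differences of 0.117 to 0.132.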

How the data were processed

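Messenger RNA was sequenced in 6 libraries of R1 cells, 3 at each time. Per the submitters' processing notes, cutadapt 1.9.1, STAR 2.5.2, RSEM 1.3.0 and GRCm38 were used; their roles, annotation, strand setting and filters are not given in the sources used here. Values deposited by the authors are estimated counts for each Ensembl gene, unscaled, with 1 column per sample (0 columns without a sample). GENCODE M21 names matched 51633 of 51912 identifiers.

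Counts were rounded, filtered with edgeR's filterByExpr (minimum count 10), scaled by TMM and tested with edgeR 4.0.16 (R 4.3.3; quasi-likelihood, group as the only term). P-values were adjusted over all 14889 tested genes by the Benjamini-Hochberg method, and an adjusted p under 0.05 is a call. The standard error is the fold change divided by the square root of F. The test was checked on simulated counts in which few genes changed, in equal numbers up and down. It was not checked under a change as wide as the 62.8% of genes called here. CPM per kb uses the longest coding transcript of GENCODE M21, an annotation that may not be the authors'. Totals and shares were compared by two-sided exact permutation tests (scipy 1.17.1). Tested members had 34 to 9701 counts in a library, which sets their precision; Sox9, with at most 5, did not pass the filter.

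The members and gene lists were chosen with earlier results of these data known. All members are named. From other lists, called genes are named by size of change (up to 4, with any not called), and the nearest genes are those with a mean of at least 5 CPM at the smallest root mean square difference of log2 CPM (prior count 2). Further list members were named after their values were seen. Alternatives were other scaling (RLE, upper quartile, library size only), other filters, DESeq2 1.42.0, limma voom 3.58.1, unrounded counts, a replicate block, other lengths, and leaving out each library. Some sequences of the members are not reported here.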

Additional observations from a re-analysis of the deposited data

How the results depend on the processing

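Each of the 9 tested members kept its direction and its call in all 15 alternative fits, and their number stayed at 6 higher and 3 lower. Over these fits the log2 fold change ran from -0.43 to -0.36 for Sox2, 1.25 to 1.33 for Sox1, 2.05 to 2.19 for Sox3, 1.53 to 1.63 for Sox4, 1.55 to 1.66 for Sox11, 0.63 to 0.72 for Sox12, 0.25 to 0.33 for Sox13, -1.93 to -1.68 for Sox15 and -0.52 to -0.4 for Sox21. The highest adjusted p was 0.0017, for Sox13. The count of changed genes stayed between 7986 (DESeq2) and 9792 (no filter). Library size as the only scaling moved the median of all genes from -0.01 to -0.07 and the share of calls that were higher from 49.2% to 39.9%. With the replicate block 9235 genes changed, and no member's call differed. The deviations of libraries with the same number correlated at -0.046, -0.043 and -0.009, so no shared effect of the replicate number was seen. Whether libraries with the same number came from 1 culture cannot be told from these values.

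Totals and shares depend on the length used, by construction, and totals also depend on the scaling. Not all of them moved. The share of Sox12 in group C changed by -15.3 points, and by -14.7 without length. With RefSeq gene spans the log2 ratio of the group C total stayed at 1.19. As log2 ratios of 48 h over 24 h, the B1 total was -0.24, and -0.19 without division by length, -0.21 with RefSeq gene spans and -0.304 with library size only. The group C total was 1.19, and 1.25 and 1.13 without length and with library size only, and B1 without Sox2 was 1.74, and 1.58 and 1.68. The total of the 10 members was -0.06, turned to 0.198 without length, and was -0.0154 with RefSeq spans and -0.12 with library size only. The change in percentage points was 2.95 for Sox1, -8.16 for Sox2 and 5.21 for Sox3 within B1, and became 6.4, -11.3 and 4.89 without length and 4.05, -10.07 and 6.02 with RefSeq spans. Without length, Sox4 and Sox11 changed by 8.88 and 5.85 points of group C, and B1 and C by -17.03 and 19.5 points of all members; C was 13.04 with RefSeq spans. RefSeq spans (for single-exon genes) and all alternatives for the total of the 10 members, the C share of it and B1 without Sox2 were added after seeing the data. Depth limits Sox9 and the 8 untested SOX genes.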
